A study of Mus musculus with 20 samples.

Results

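Liver RNA of unselected male control mice at 19–21 weeks of age was compared with that of the same line at 11 weeks. The comparison used 10 of the 20 libraries, 5 mice per age, each mouse sampled at 1 age. All 10 mice were of the FZTDU line, which was founded by crossing outbred and inbred populations and is kept by random mating, so mice within an age differ genetically. All were fed standard breeding feed ad libitum under a 12:12 light–dark cycle, carried no allele introduced by the study and received no agent. The other 10 libraries came from Titan mice, a line selected for high body mass from the same base population, at the same ages and on the same feed. They entered the gene filter, the scaling and the spread behind the control p-values and intervals. Their own values are set beside those of the controls further below. Mice are numbered 1 to 5 within an age as the labels number them, and the labels state no link between same-numbered mice of different ages.

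The adult mouse liver continues to adjust its gene expression after sexual maturity. Pulsed growth hormone secretion in males sets the sex-dependent expression of many cytochromes P450, transporters and major urinary proteins, and the growth of the body slows. Hepatocytes take up bile salts, hormones and drugs from blood through organic anion transporting polypeptides of the *Slco* family, conjugate or oxidize them, and export sterols into bile through the transporter pair ABCG5 and ABCG8. Plasma protein synthesis, mitochondrial energy metabolism and protein turnover are the continuous functions of the same cells.

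Libraries held 12209454 to 22166755 reads assigned to genes at 11 weeks and 7806106 to 18127024 at 19–21 weeks. Reads falling outside annotated genes made up 14.8 to 28.2% of all reads, unmapped ones included, at 11 weeks and 15.5 to 30.5% at 19–21 weeks. The highest share was in mouse 4 of each age. The mitochondrial share of gene reads was 7.12 to 15.1% and 6.46 to 16%. Hepatocyte identity was clear, with *Alb*, which encodes albumin, at 48322 to 76352 CPM over the 10 mice, CPM being a gene's reads per megaread of its library. Of 17 exocrine pancreas markers, 13 had no read in any control, and 5 of 14 skeletal muscle markers had none. Each list held 1 gene with enough reads to test. These were *Cela1* of the pancreas list, with a mean of 33.5 CPM at 11 weeks and 36.8 CPM at 19–21 weeks, and *Eno3* of the muscle list, with 2.91 and 3.07 CPM. Library sizes were scaled by the trimmed mean of M-values in all CPM given here.

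Few transcripts passed the test between the ages. Of 13783 genes with enough reads to test, 12 passed an adjusted p of 0.05 in edgeR's quasi-likelihood test with Benjamini-Hochberg adjustment, or 0.0871% of all genes tested. These were 6 genes higher and 6 genes lower at 19–21 weeks, 0.0435% in each direction. *Gm6614*, *Gm6222*, *Gm16573*, *Plcl2*, *Abcg5* and *Slco1a1* rose, and *Gm30784*, *Atp6v0e2*, *Ces1g*, *Chchd2* and *Cyp2c68* were among those that fell. The log2 change was at least 1 in size for 9 of the 12. In 8 of the 12 no 19–21-week-old mouse lay within the range of the 11-week-old mice, which held for 140 genes or 1.02% of all tested. Before adjustment 848 genes (6.15%) had a p under 0.05, of which 398 (2.89%) were higher and 450 (3.26%) lower. These are the shares to set beside the counts of each list below. DESeq2 on the same counts passed 50 genes, 0.363% of those it tested, 26 higher and 24 lower, and all 12 genes were among them. These p-values rest on a spread between mice that was estimated from all 20 mice, Titan mice included, and not from the controls alone. When the 10 control mice were fitted without the Titan libraries, 4 genes passed higher (*Gm6614*, *Gm6222*, *Abcg5* and *Slc8a3*) and 0 passed lower, with 371 lower at an unadjusted p under 0.05 and 24 lower by DESeq2 in the fit of 20. Without mouse 4 of both ages, 3 genes passed in each direction.

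**Figure D1:**
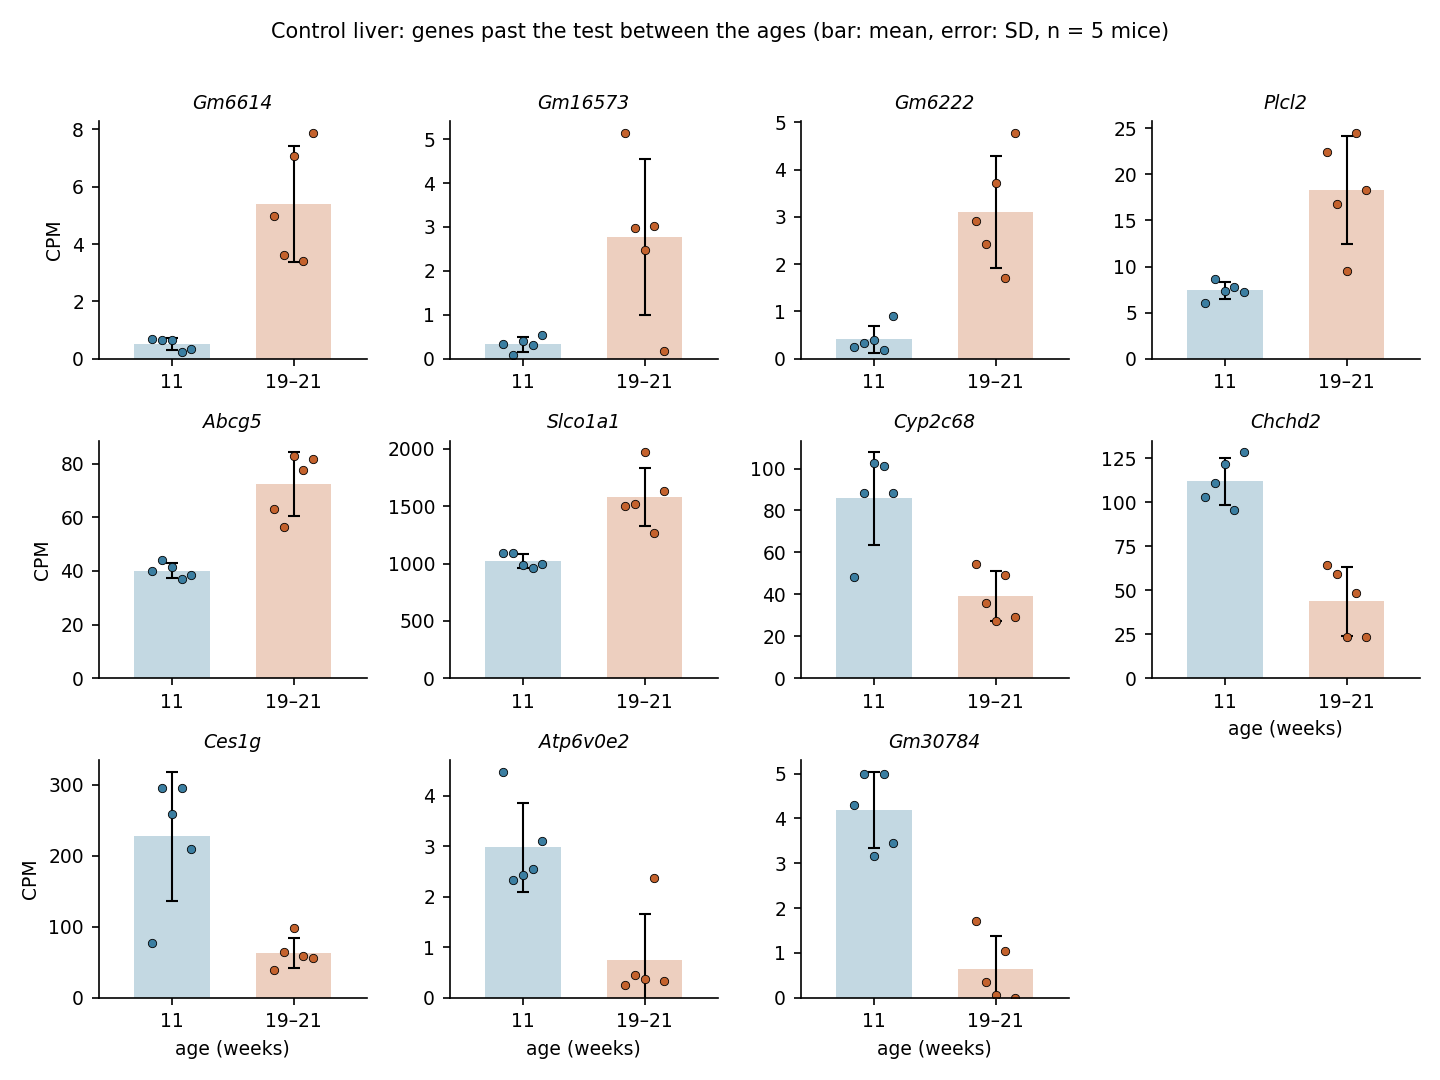
CPM of 11 of the 12 genes past the test, 1 panel per gene with its own linear axis from 0, at 11 and at 19–21 weeks. Points are the 5 mice per age, bars the mean and error bars the SD (cut at 0 for Atp6v0e2 and Gm30784 at 19–21 weeks). The ages did not overlap in 7 of these, and in Ces1g, Cyp2c68, Atp6v0e2 and Gm16573 at least 1 mouse lay within the range of the other age.

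The mean CPM of the 12 genes over the 10 mice ran from 1.55 (*Gm16573*) to 1302 (*Slco1a1*), as the plot of fold change against level shows. The median size of the log2 difference over all 13783 genes was 0.104. The median SD between mice of the same age was 0.23. The difference is between group means and the SD is of single mice. Their order therefore cannot show whether age had an effect, and nothing is concluded from it. Mice of different ages lay a root mean square distance of 0.576 log2 units apart on average (0.530 to 0.621). Pairs of 11-week-old mice lay 0.548 apart (0.494 to 0.610), and pairs of 19–21-week-old mice 0.578 (0.553 to 0.607). The mean distance between ages was thus above that among the younger mice and close to that among the older mice, and the ranges overlapped.

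**Figure D2:**
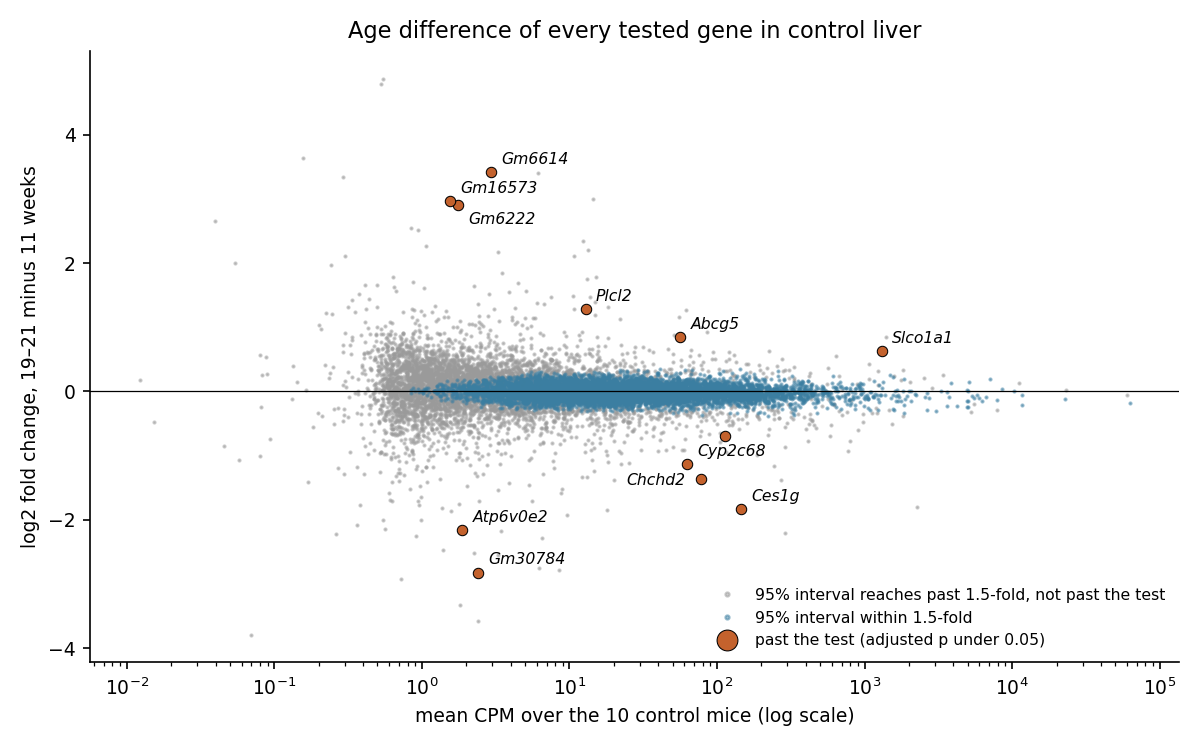
Log2 fold change at 19–21 against 11 weeks in controls (vertical axis) against mean CPM over the 10 mice (log axis) for the 13783 tested genes, with the 12 genes past the test as large points, 11 of them named, and the genes bounded within 1.5-fold in blue. Most points lie near 0, with the median at 0.000362, and the spread narrows as CPM rises.

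The promoter-proximal sequences of the sterol and organic anion transporters are shown here because these transporters carried several of the changes. *Abcg5* and *Abcg8* are transcribed in opposite directions from either side of a short interval, so this stretch lies upstream of both. The 109 bases at chr17:84683012-84683120 (GRCm38.p6, RefSeq, plus strand) are given with TTATC, the reverse complement of GATAA, in capitals. The 250 bases upstream of the start of *Slco1a1* (chr6:141946963-141947212, minus strand) are given with AGGTCA and its reverse complement TGACCT in capitals. Those upstream of *Slco1a4* (chr6:141856221-141856470, minus strand) held neither motif.
Abcg5-Abcg8 interval: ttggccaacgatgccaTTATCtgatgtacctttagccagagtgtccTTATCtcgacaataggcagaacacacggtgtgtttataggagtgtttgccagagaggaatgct
Slco1a1: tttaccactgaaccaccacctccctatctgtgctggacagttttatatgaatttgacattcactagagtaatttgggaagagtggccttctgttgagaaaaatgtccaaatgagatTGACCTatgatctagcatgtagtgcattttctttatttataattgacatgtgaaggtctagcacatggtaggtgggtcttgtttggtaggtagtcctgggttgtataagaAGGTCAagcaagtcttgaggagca
Slco1a4: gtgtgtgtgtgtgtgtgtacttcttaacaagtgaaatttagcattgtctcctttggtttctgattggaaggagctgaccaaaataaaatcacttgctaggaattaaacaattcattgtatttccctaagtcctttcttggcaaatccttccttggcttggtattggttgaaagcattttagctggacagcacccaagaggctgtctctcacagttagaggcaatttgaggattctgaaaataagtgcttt

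The letters GATAA, on either strand, occurred 2 times in the *Abcg5*–*Abcg8* interval and in 9.36% of 32851 windows of that length directly before a RefSeq gene start. AGGTCA, on either strand, occurred 2 times before *Slco1a1* and in 14% of windows of 250 bases. GATAA occurred neither there nor before *Slco1a4*. Both motifs were chosen after the transcripts' values were seen, and a match describes the letters only.

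*Abcg5* encodes one partner of the transporter that moves cholesterol and plant sterols into bile. The 11-week-old mice had 40.0, 43.9, 41.4, 37.1 and 38.4 CPM and the 19–21-week-old mice 63.2, 56.3, 82.8, 77.6 and 81.7 CPM. Every older mouse was above every younger one. *Abcg5* (chr17:84658234-84683011, GRCm38, minus strand) rose by 0.85 on the log2 scale (SE 0.13, 95% interval 0.57 to 1.13, edgeR adjusted p = 0.00902). Without mouse 4 of both ages its adjusted p was 0.0905.

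*Abcg8*, which encodes the obligate partner, had 69.3, 68.1, 54.1, 54.9 and 57.9 CPM at 11 weeks. At 19–21 weeks it had 79.3, 72.8, 108, 90.7 and 98.1 CPM, again with no overlap between ages. Its log2 difference of 0.56 (SE 0.12) did not pass edgeR (adjusted p = 0.0976) and passed DESeq2 (adjusted p = 0.00737). The bodies of the 2 genes overlap on opposite strands, and only reads on each gene's own strand were counted. Of 23 tested genes for sterol export and bile acid synthesis, *Abcg5* alone passed the test, 3 were higher and 0 lower at an unadjusted p under 0.05 (2.89% and 3.26% of all genes tested), and the list's median log2 difference was -0.02. *Abcb11*, the bile salt export pump, was among the 14 of 23 whose 95% interval lay within 1.5-fold, with a log2 difference of -0.23 (95% interval -0.53 to 0.07).

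The organic anion transporter genes lie side by side on chromosome 6, and 3 transcripts of this block passed the test in different directions. *Slco1a1* encodes a male-predominant uptake transporter for bile salts and steroid conjugates. Its CPM were 1088, 1092, 984, 959.7 and 1000.0 at 11 weeks and 1504, 1521, 1969, 1268 and 1631 at 19–21 weeks. The lowest older mouse exceeded the highest younger mouse. *Slco1a1* (chr6:141907282-141946962, minus strand) rose by 0.62 (SE 0.10, 95% interval 0.40 to 0.84, edgeR adjusted p = 0.0161). The adjusted p was 0.0671 without 11-week-old mouse 3, 0.0702 without 11-week-old mouse 4 and 0.161 with only the control mice. The *Slco1a1* transcript was 91% identical to that of *Slco1a5* over 490 bases, so its count is uncertain, although *Slco1a5* had at most 2 reads in any control.

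*Gm6614*, annotated as a protein-coding gene of the same family, had the smallest p. It had 0.675, 0.666, 0.644, 0.244 and 0.345 CPM at 11 weeks, which was 4 to 13 reads per mouse. At 19–21 weeks it had 4.97, 3.61, 7.07, 3.43 and 7.89 CPM, or 26 to 131 reads. The ages were far apart, and *Gm6614* (chr6:141971845-142011414, minus strand) rose by 3.41 (SE 0.32, 95% interval 2.75 to 4.07, edgeR adjusted p = 1.04e-05). Its transcript was 90.7% identical to that of *Slco1a6* over 849 bases, so the assignment of its reads is uncertain, although *Slco1a6* had at most 1 read in any control.

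*Gm30784*, a long intergenic non-coding RNA on the opposite strand, lies between *Slco1a4* and *Slco1a1*. It had 4.30, 5.00, 3.17, 5.00 and 3.45 CPM at 11 weeks and 1.72, 0.361, 0.054, 1.05 and 0 CPM at 19–21 weeks. The ages did not overlap and *Gm30784* (chr6:141866358-141875220, plus strand) fell by 2.82 on the log2 scale (SE 0.53, edgeR adjusted p = 0.0354). This call was lost in 15 of the 20 fits that left out 1 mouse, with an adjusted p of up to 0.105.

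The neighbours of these genes did not pass edgeR. *Slco1a4*, a transporter with higher expression in females, had 32.1, 45.1, 24.8, 39.9 and 29.4 CPM at 11 weeks and 101, 42.5, 62.3, 62.1 and 114 CPM at 19–21 weeks. Only older mouse 2 lay within the younger range, and the log2 difference was 1.16 (SE 0.23, edgeR adjusted p = 0.0603, DESeq2 adjusted p = 0.000727). *Slco1b2*, the main hepatic uptake carrier for bilirubin conjugates and drugs, ranged from 1248 to 1570.4 CPM at 11 weeks and from 1528 to 1983 CPM at 19–21 weeks. Its log2 difference of 0.23 (SE 0.10, edgeR adjusted p = 0.794) lay within 1.5-fold. The other 5 of the 10 genes listed in this block had too few reads to test.

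Per kilobase of exon, the level of *Slco1b2* was the highest of the block, at 289 CPM per kilobase (RPKM) at 11 weeks and 338 RPKM at 19–21 weeks. *Slco1a1* followed at 194 and 299 RPKM and *Slco1a4* at 5.34 and 11.9 RPKM. *Gm6614* was the lowest of the 4 at 11 weeks, at 0.21 RPKM, and reached 2.20 RPKM at 19–21 weeks. The genes stand 10158 bases (*Slco1a4* to *Gm30784*), 32061 bases (*Gm30784* to *Slco1a1*) and 24882 bases (*Slco1a1* to *Gm6614*) apart.

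*Ces1g*, a carboxylesterase that hydrolyses triglycerides and esters of drugs, had 77.7, 294, 259, 296 and 209.8 CPM at 11 weeks. At 19–21 weeks it had 39.6, 64.7, 97.8, 59.0 and 56.0 CPM. Younger mouse 1 was below older mouse 3, and the other 4 younger mice were above all older mice. *Ces1g* (chr8:93302369-93337308, minus strand) fell by 1.84 on the log2 scale (SE 0.29, 95% interval -2.44 to -1.24, edgeR adjusted p = 0.00902). The call was lost with only the control mice (adjusted p = 0.169) and without mouse 4 of both ages (adjusted p = 0.0846).

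*Cyp2c68*, a cytochrome P450 of the large *Cyp2c* cluster, had 48.3, 88.1, 103, 101 and 88.5 CPM at 11 weeks and 54.4, 36.1, 27.5, 49.3 and 29.0 CPM at 19–21 weeks. Younger mouse 1 lay among the older mice. *Cyp2c68* (chr19:39688834-39741054, minus strand) fell by 1.14 on the log2 scale (SE 0.21, edgeR adjusted p = 0.0354), a call lost in 11 of 20 fits without 1 mouse (adjusted p up to 0.125). Its transcript was 98% identical to that of *Cyp2c40* and 97% identical to that of *Cyp2c67*, each over 1724 bases. It was 96.4% identical to that of *Cyp2c69* over 1568 bases. Reads may be shared or discarded between these genes, so the count of *Cyp2c68* is uncertain. *Cyp2c40* and *Cyp2c69* had too few reads to test, with at most 19 and 10 in any control. *Cyp2c67* had 341 to 444 CPM at 11 weeks and 98.7 to 257 CPM at 19–21 weeks, a log2 difference of -0.87 (edgeR adjusted p = 0.155).

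Other members of the *Cyp2c* cluster gave differences in both directions without passing. *Cyp2c70*, the enzyme that makes muricholic bile acids in mice, had 1158, 670.0, 1043, 1086 and 1109.8 CPM at 11 weeks and 503, 632, 423, 574 and 538 CPM at 19–21 weeks. All older mice were below all younger ones, and the log2 difference was -0.92 (SE 0.26, edgeR adjusted p = 0.343). *Cyp2c37*, a fatty acid and drug oxidase, had 24.9, 50.6, 53.5, 69.2 and 33.2 CPM at 11 weeks and 73.0, 88.5, 111, 87.4 and 119 CPM at 19–21 weeks. All older mice were above all younger ones, with a log2 difference of 1.05 (SE 0.32, edgeR adjusted p = 0.469). *Cyp2c55* had 10.6, 3.08, 2.77, 3.11 and 1.03 CPM at 11 weeks and 9.52, 25.2, 13.5, 12.0 and 27.3 CPM at 19–21 weeks. Younger mouse 1 was within the older range, and the log2 difference of 2.12 (SE 0.42) had an edgeR adjusted p of 0.0603 and a DESeq2 adjusted p of 0.000665. Of 27 tested genes in a list of phase I cytochromes and their regulators, which does not hold *Cyp2c68* or *Cyp2c67*, none passed edgeR, 2 were higher and 2 lower at an unadjusted p under 0.05, and 1 passed DESeq2. The most abundant in reads, *Cyp3a11*, had a log2 difference of -0.15 (95% interval -0.50 to 0.19).

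*Chchd2* encodes a small mitochondrial intermembrane-space protein. It had 103, 111, 122, 95.8 and 129 CPM at 11 weeks and 64.7, 59.5, 23.2, 48.2 and 23.5 CPM at 19–21 weeks. The ages did not overlap, and *Chchd2* (chr5:129881156-129887470, minus strand) fell by 1.36 on the log2 scale (SE 0.23, 95% interval -1.84 to -0.88, edgeR adjusted p = 0.0161). Without 11-week-old mouse 3 its adjusted p was 0.0671, and with only the control mice 0.257.

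*Gm6222*, a transcribed processed pseudogene of *Chchd2* on the X chromosome, moved the other way. It had 0.253, 0.333, 0.396, 0.183 and 0.897 CPM at 11 weeks and 2.92, 2.44, 3.72, 1.71 and 4.78 CPM at 19–21 weeks. The ages did not overlap, and *Gm6222* (chrX:103762917-103763545, minus strand) rose by 2.90 (SE 0.38, 95% interval 2.12 to 3.69, edgeR adjusted p = 0.0012). The transcripts of *Gm6222* and *Chchd2* were 94.7% identical over 552 bases, and reads that mapped equally well to both were not counted for either. Both values are therefore uncertain, and the share of each gene's reads that reached the count table was not tested. *Zbed5*, whose transcript matched that of *Chchd2* at 97.7% over 304 bases, had a log2 difference of -0.96 (edgeR adjusted p = 0.611).

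The genes that follow passed the test at low abundance. *Plcl2*, an inactive phospholipase C relative that binds inositol phosphates, had 6.07, 8.66, 7.33, 7.74 and 7.24 CPM at 11 weeks and 22.4, 16.8, 9.5, 24.5 and 18.3 CPM at 19–21 weeks. Each older mouse was above the younger ones, and *Plcl2* (chr17:50509403-50688484, plus strand) rose by 1.29 (SE 0.23, edgeR adjusted p = 0.0313). Its call was lost in 10 of 20 fits without 1 mouse, at an adjusted p of up to 0.0945.

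*Atp6v0e2*, a subunit of the vacuolar proton pump, had 4.47, 2.33, 2.43, 2.56 and 3.10 CPM at 11 weeks and 0.257, 0.451, 0.378, 2.37 and 0.336 CPM at 19–21 weeks. Older mouse 4 lay within the younger range and the other 4 were below it. *Atp6v0e2* (chr6:48537615-48541801, plus strand) fell by 2.16 on the log2 scale (SE 0.40, edgeR adjusted p = 0.0354), and the call was lost in 15 of 20 fits without 1 mouse (adjusted p up to 0.135). *Gm16573*, a transcript antisense to *Parp4*, had 0.337, 0.0833, 0.396, 0.305 and 0.552 CPM at 11 weeks and 5.15, 2.98, 2.48, 3.03 and 0.168 CPM at 19–21 weeks. Older mouse 5 lay within the younger range. *Gm16573* (chr14:56607261-56620513, minus strand) rose by 2.96 (SE 0.55, edgeR adjusted p = 0.0354), and 12 of 20 fits without 1 mouse lost the call (adjusted p up to 0.112). *Parp4* itself had a log2 difference of 0.08.

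Genes just beyond the threshold had higher or lower values without passing. *Slc8a3*, a sodium–calcium exchanger, had 0.167 to 0.276 CPM at 11 weeks and 1.03 to 2.18 CPM at 19–21 weeks, with no overlap and a log2 difference of 2.55 (edgeR adjusted p = 0.0603). *Psph*, the last enzyme of serine synthesis, had a log2 difference of 0.88 (edgeR adjusted p = 0.0603). *Gm13410* had 0 to 0.069 CPM at 11 weeks, at most 1 read per mouse, and 0.168 to 2.11 CPM at 19–21 weeks. On the lower side, *Gm12040* (-2.14, edgeR adjusted p = 0.0748) and *Mtmr11*, a myotubularin relative (-2.54, edgeR adjusted p = 0.0837), came closest. *Stat2* (-0.36), the glucocorticoid-induced *Fkbp5* (-0.97) and *Ints7* (-0.43) followed with adjusted p from 0.106 to 0.11 in edgeR.

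Growth hormone acts on hepatocytes through its receptor and STAT5, and induces *Igf1*, *Igfals* and the feedback inhibitor *Socs2*. None of 18 tested genes of this axis passed edgeR or DESeq2, and the list's median log2 difference was -0.29. At an unadjusted p under 0.05, 0 were higher and 3 lower (2.89% and 3.26% of all genes tested). *Socs2* had 19.2, 48.4, 14.0, 21.6 and 41.3 CPM at 11 weeks and 9.35, 5.96, 7.39, 15.9 and 17.6 CPM at 19–21 weeks, a difference of -1.37 (SE 0.55, edgeR adjusted p = 0.689). *Igf1* had 1138, 1234, 1395, 1421 and 1544 CPM at 11 weeks and 1092, 1003, 1082, 1356 and 986 CPM at 19–21 weeks. The older mice overlapped the younger ones in both genes, and the *Igf1* difference was -0.29 (95% interval -0.56 to -0.02). *Igfals*, whose product holds IGF1 in the circulation, differed by -0.45 (edgeR adjusted p = 0.694).

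Genes known to be higher in male liver gave 18 of 23 log2 differences below 0, against 49.8% of all tested genes, and a median of -0.25. *Slco1a1* rose, and 6 of the 23 were lower at an unadjusted p under 0.05 (3.26% of all genes tested). *Ugt2b38*, a glucuronosyltransferase, had 19.9 to 27.5 CPM at 11 weeks and 5.40 to 15.8 CPM at 19–21 weeks, with no overlap and a difference of -0.99 (edgeR adjusted p = 0.165, DESeq2 adjusted p = 0.021). *Cyp4a12b*, an androgen-dependent fatty acid hydroxylase, differed by -0.86 (edgeR adjusted p = 0.29), with overlap. *Mup3*, the most abundant of the list in reads and a major urinary protein gene, differed by -0.09 (95% interval -0.39 to 0.21). The *Mup* genes are close copies of one another, and their separate counts are uncertain.

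Genes known to be higher in female liver included 4 higher and 1 lower at an unadjusted p under 0.05 among 19 tested (2.89% and 3.26% of all genes tested). None of the 19 passed edgeR and 2 passed DESeq2, with a median of 0.15. The leading values were those of *Slco1a4* given above and of *Cyp17a1*, a steroid hydroxylase. *Cyp17a1* had 0.169, 0.333, 0.347, 0.610 and 0.276 CPM at 11 weeks and 0.6, 2.26, 0.971, 2.24 and 2.94 CPM at 19–21 weeks. The ages touched only at younger mouse 4 and older mouse 1, and the difference was 2.27 (SE 0.49, edgeR adjusted p = 0.101). *Tox* followed at 0.99 (edgeR adjusted p = 0.504). Only 1 of the 19 lay within 1.5-fold, most being of low abundance. Of 14 tested fetal and perinatal genes, 0 passed either tool, 1 was higher and 2 were lower at an unadjusted p under 0.05. The lower ones were *Cyp3a16* (-0.96) and the imprinted growth regulator *Grb10* (-0.53).

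**Figure D3:**
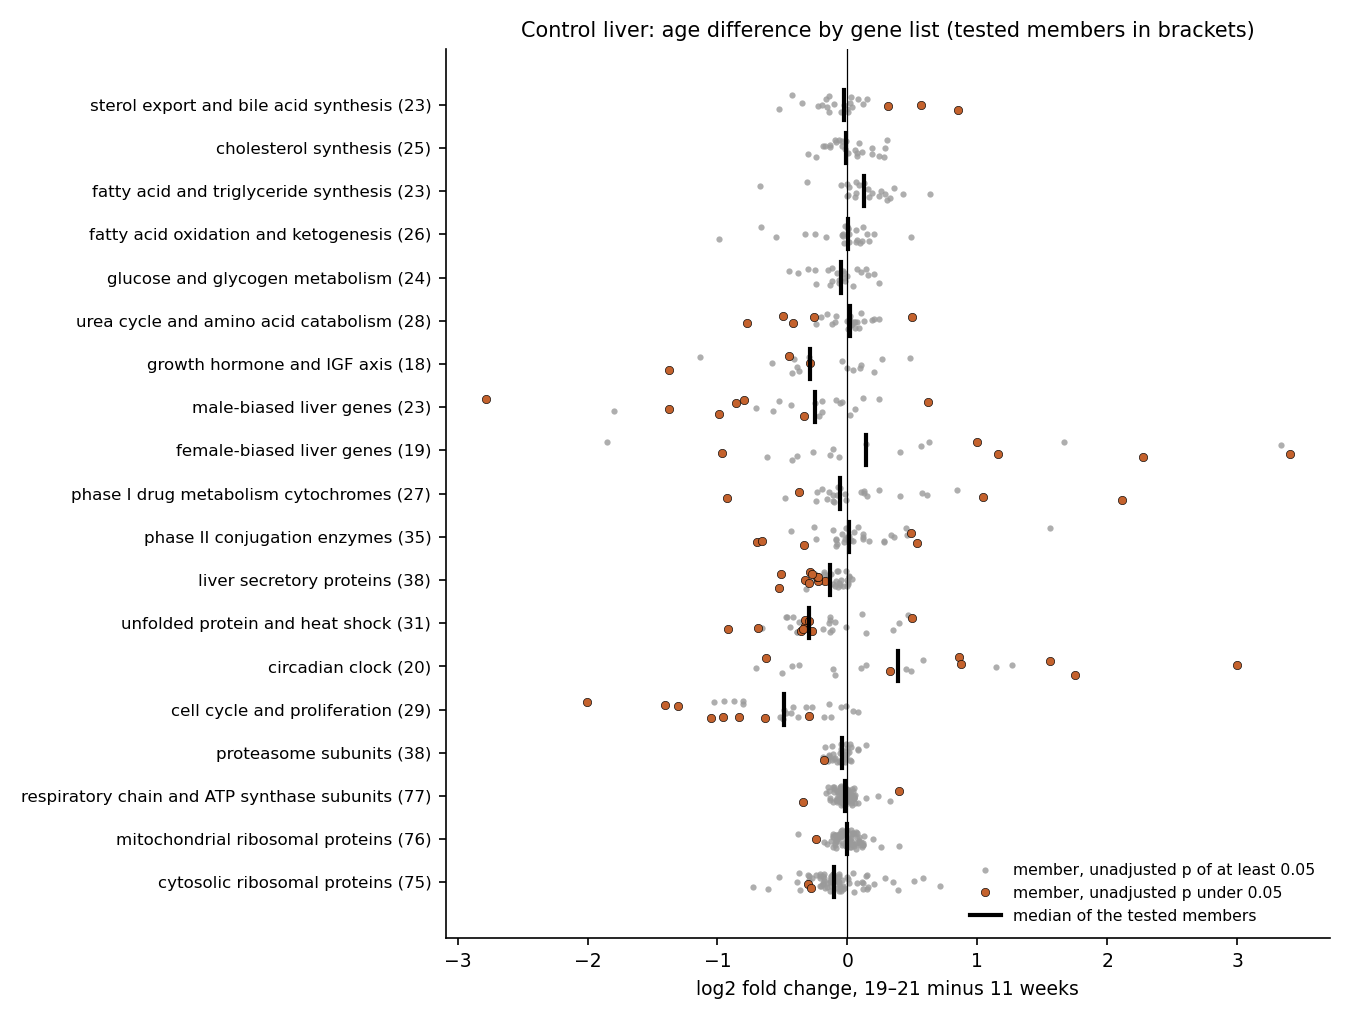
Log2 fold change at 19–21 against 11 weeks in controls (horizontal axis) for the tested members of 19 gene lists, with 1 point per gene, filled orange where the unadjusted p was under 0.05, and a bar at the list's median. The medians ran from -0.49 for cell cycle genes to 0.39 for circadian clock genes, against 0.000362 for all tested genes.

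Cell cycle genes had the lowest median of all lists. Among 29 tested genes, 27 log2 differences were below 0, against 49.8% of all tested genes, and the median was -0.49. At an unadjusted p under 0.05, 8 were lower and 0 higher (3.26% and 2.89% of all genes tested), yet none passed edgeR or DESeq2. *Ccna2*, the S- and G2-phase cyclin, had 0.337, 0.750, 1.09, 1.34 and 0.966 CPM at 11 weeks and 0.343, 0.451, 0.054, 0.395 and 0.587 CPM at 19–21 weeks. Younger mouse 1 was at the level of the older mice, and the difference was -1.40 (SE 0.46, edgeR adjusted p = 0.549). *Rrm1*, a subunit of ribonucleotide reductase, differed by -0.30 (95% interval -0.51 to -0.09) with no overlap. *Ncapg*, a condensin subunit, differed by -2.0, which rested on 6.59 CPM in younger mouse 3 and became 0.41 without that mouse. In whole liver, fewer cells of a type and less RNA per cell cannot be told apart, for these genes and for every cell type marker below. Senescence and p53 target genes showed 0 past either tool and 0 at an unadjusted p under 0.05 among 17, with a median of 0.08.

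Circadian clock genes varied widely between mice of 1 age, with a median SD of 0.65 log2 units against 0.23 over all genes. Of 20 tested, 6 were higher and 1 lower at an unadjusted p under 0.05 (2.89% and 3.26% of all genes tested). None passed edgeR or DESeq2, and the median log2 difference was 0.39. *Dbp*, an output transcription factor with strong daily rhythm, had 7.34, 7.16, 0.792, 0.671 and 1.10 CPM at 11 weeks and 0.858, 42.1, 54.2, 25.6 and 5.29 CPM at 19–21 weeks. Older mice 2, 3 and 4 were high, older mouse 1 was at the lower younger level, and the difference was 3.0 (SE 0.98, edgeR adjusted p = 0.541). *Per3*, a period gene, had 10.8, 9.16, 3.96, 2.01 and 4.55 CPM at 11 weeks and 2.92, 30.1, 33.2, 26.9 and 7.05 CPM at 19–21 weeks, with the same 3 older mice high. *Tef* followed that order of mice too, with a difference of 0.87 (edgeR adjusted p = 0.576). *Arntl*, whose rhythm runs opposite to that of *Dbp*, differed by -0.63. The time of day of tissue collection is not given in the sources used here, and its part in these values was not tested.

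Unfolded protein and heat shock genes gave differences from -0.92 to 0.49, mostly below 0. Among the 31 tested, 25 differences were below 0, against 49.8% of all tested genes, and the median was -0.30. The mean log2 CPM of the members per mouse overlapped between the ages, at 5.99 to 6.62 at 11 weeks and 5.65 to 6.27 at 19–21 weeks. At an unadjusted p under 0.05, 8 were lower and 1 higher (3.26% and 2.89% of all genes tested). None passed edgeR and 1 passed DESeq2. That gene, *Pdia3*, a protein disulfide isomerase of the endoplasmic reticulum, had 617, 434, 555, 507 and 525 CPM at 11 weeks and 403, 441, 390.5, 429.7 and 423 CPM at 19–21 weeks. Younger mouse 2 was below older mouse 2, and the difference was -0.34 (SE 0.09, edgeR adjusted p = 0.236, DESeq2 adjusted p = 0.031). The calcium-binding chaperone gene *Calr* differed by -0.27 and the glucose-regulated chaperone gene *Hsp90b1* by -0.35. *Hspe1*, the mitochondrial co-chaperonin, went the other way, with 19.7, 14.9, 23, 19.6 and 19.2 CPM at 11 weeks and 26.8, 24.6, 33, 23.7 and 27.7 CPM at 19–21 weeks. Every older mouse was above every younger one, and the difference was 0.49 (SE 0.13, edgeR adjusted p = 0.231).

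Of 38 tested plasma protein genes, 31 (81.6%) had a 95% interval within 1.5-fold, against 65.2% of all tested genes and 87.5% of all genes at 100 CPM and above. Differences ran from -0.53 to 0.03 with a median of -0.14, and 6 were above 0 against 50.2% of all genes. The mean log2 CPM of the members per mouse overlapped between the ages, at 10.71 to 10.88 at 11 weeks and 10.55 to 10.73 at 19–21 weeks. At an unadjusted p under 0.05, 10 were lower (3.26% of all genes tested). None passed edgeR or DESeq2. The complement genes *C8b* (-0.53) and *C9* (-0.51) had the smallest p of the list, at edgeR adjusted p of 0.576 and 0.637. Acute phase genes had a median of -0.20, with 0 higher and 4 lower of 25 at an unadjusted p under 0.05 (2.89% and 3.26% of all genes tested). Those lower were led by *Crp* (-0.27) and the copper carrier ceruloplasmin *Cp* (-0.29), and none passed either tool. Interferon-stimulated genes had a median of 0.02, with 3 of 39 lower at an unadjusted p under 0.05. The interferon signal transducer *Stat2* had 83.2 to 101 CPM at 11 weeks and 62.8 to 74.0 CPM at 19–21 weeks, and was the only one of the 39 to pass DESeq2.

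Central lipid and glucose metabolism held no gene past the test. Cholesterol synthesis (25 genes), fatty acid and triglyceride synthesis (23), fatty acid oxidation and ketogenesis (26) and glucose and glycogen metabolism (24) held no gene with an unadjusted p under 0.05 and none past edgeR or DESeq2. Their medians were -0.01, 0.13, 0.01 and -0.05. Within 1.5-fold were 13, 8, 17 and 14 of these genes, the lipogenic genes being the least often bounded, with *Scd1*, the stearoyl-CoA desaturase gene, at 0.13 and a 95% interval from -0.89 to 1.14.

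Of 17 lipid droplet and lipid uptake genes, 1 was higher and 3 were lower at an unadjusted p under 0.05, none passed edgeR and 1 passed DESeq2, with a median of 0.09. Of 28 genes of the urea cycle and amino acid catabolism, 1 was higher and 4 were lower, none passed edgeR or DESeq2, and the median was 0.02. *Abhd5*, the co-activator of adipose triglyceride lipase, had 53.1 to 61.3 CPM at 11 weeks and 38.9 to 50.5 CPM at 19–21 weeks, with no overlap and a difference of -0.34 (SE 0.08, edgeR adjusted p = 0.155, DESeq2 adjusted p = 0.021). *Vldlr*, a lipoprotein receptor, had 9.19, 1.75, 2.48, 1.10 and 5.79 CPM at 11 weeks and 12.2, 10.8, 10.4, 15.7 and 6.12 CPM at 19–21 weeks, a difference of 1.46 (SE 0.39, edgeR adjusted p = 0.271) with older mouse 5 inside the younger range. *Bhmt*, which remethylates homocysteine with betaine, had 539, 334, 495, 560.1 and 684 CPM at 11 weeks and 335, 419, 232, 271 and 272 CPM at 19–21 weeks. Younger mouse 2 lay among the older mice, and the difference was -0.77 (SE 0.23, edgeR adjusted p = 0.455). *Glul*, glutamine synthetase of the pericentral hepatocytes, differed by -0.50 and *Sds*, the gluconeogenic serine dehydratase, by 0.50, both without passing. Insulin and nutrient feedback genes had a median of 0.09, with 1 higher and 1 lower of 22 at an unadjusted p under 0.05 and none past edgeR or DESeq2.

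Hepatocyte transcription factors and markers of liver zonation held no gene past the test. Of 22 tested transcription factors, 17 lay within 1.5-fold and 1 was higher and 1 lower at an unadjusted p under 0.05, with none past edgeR or DESeq2. *Hnf4a*, the master regulator of hepatocyte identity, differed by -0.11 (95% interval -0.34 to 0.12). Pericentral genes had a median of 0.01 and periportal genes of -0.18. *Cyp2e1*, a pericentral cytochrome, ranged from 3086 to 4138 CPM at 11 weeks and from 3485 to 4538 CPM at 19–21 weeks, a difference of 0.13 (95% interval -0.18 to 0.44). *Cyp2f2*, a periportal cytochrome, differed by -0.37 (edgeR adjusted p = 0.562).

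Markers of other cell types showed no gene past edgeR. Among 11 tested lymphocyte genes, 3 were higher at an unadjusted p under 0.05 (2.89% of all genes tested) and 1, *Ighm*, passed DESeq2, with a list median of 0.34. *Ighm*, the heavy chain of immunoglobulin M, had 6.41, 6.33, 2.82, 5.06 and 3.24 CPM at 11 weeks and 4.89, 4.60, 40.0, 49.9 and 9.73 CPM at 19–21 weeks. Older mice 3 and 4 were high, older mice 1 and 2 were within the younger range, and the difference was 2.20 (SE 0.54, edgeR adjusted p = 0.165, DESeq2 adjusted p = 0.035). The summed level of the lymphocyte list ran from 40.1 to 55.9 CPM at 11 weeks and from 31.8 to 139.5 CPM at 19–21 weeks. Its part in the genes past the test was not tested. Kupffer cell markers had 0 of 21 at an unadjusted p under 0.05, a median of 0.06, and none past DESeq2. Stellate cell and matrix genes had 3 of 26 higher (*Des*, *Reln* and *Colec10*) at that threshold, against 2.89% of all genes tested. Endothelial genes had 1 higher and 4 lower of 22 (3.26% of all genes tested were lower), among them the von Willebrand factor gene *Vwf* (-0.48). The erythroid haem synthesis gene *Alas2*, at -0.79, was the only one of 10 erythroid genes with an unadjusted p under 0.05. The 9 tested cholangiocyte genes had a median of -0.22 and the 9 tested adipocyte genes one of -0.12, with 0 and 1 genes at an unadjusted p under 0.05 and none past DESeq2.

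Most of the liver transcriptome was bounded between the ages. For 8987 of 13783 genes (65.2%), the whole 95% interval of the difference lay within 1.5-fold, and for 11911 it lay within 2-fold. These 8987 genes held 78.8% of the reads of tested genes. No gene past the test was among them, and 4784 genes neither passed the test nor were bounded in this way. In 143 genes the interval reached past 2-fold in both directions, so that a change of that size could not be seen. Boundedness followed read depth. Within 1.5-fold were 0 of the 145 genes under 0.5 CPM, 0.636% of 1101 genes at 0.5 to 1 CPM and 27.8% of 3226 at 1 to 5 CPM. At 5 to 20 CPM it was 81% of 3726, at 20 to 100 CPM 91.8% of 4166, and at 100 CPM and above 87.5% of 1419. A gene at a low level that was neither bounded nor past the test is therefore undetermined at this depth.

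**Figure D4:**
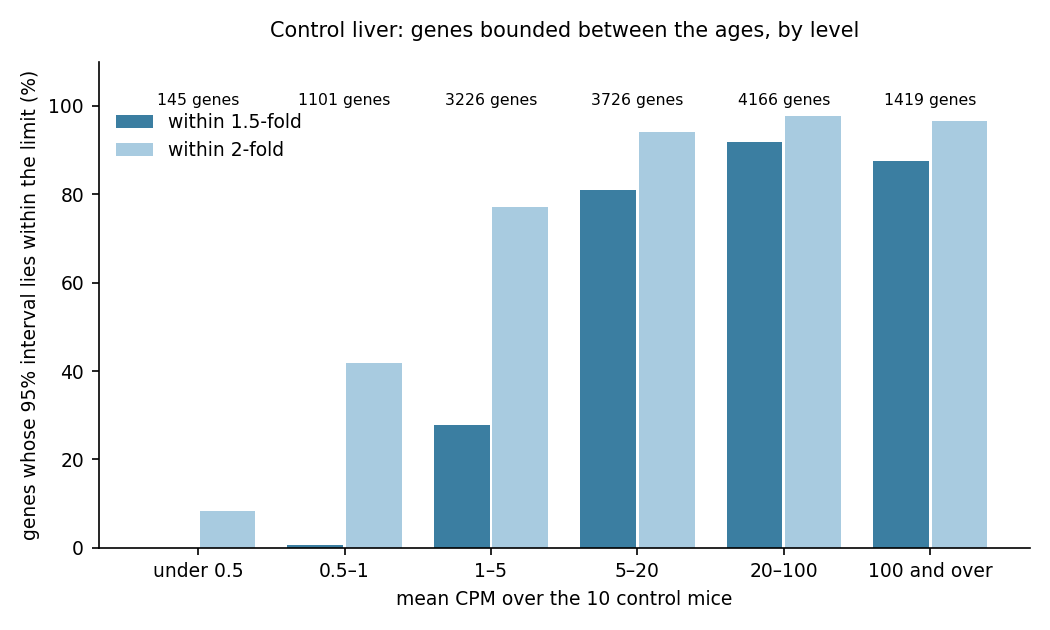
Share of tested genes (percent, axis from 0) whose 95% interval for the difference between ages lay within 1.5-fold or within 2-fold, for 6 classes of mean CPM over the controls. The share within 1.5-fold went from 0% under 0.5 CPM to 91.8% at 20 to 100 CPM and was 87.5% at 100 CPM and above.

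Among the most abundant bounded genes, *Alb* differed by -0.18 (95% interval -0.46 to 0.11). *Apoe*, which had 9099 to 10888 CPM at 11 weeks and 8321 to 11498 CPM at 19–21 weeks, differed by 0.01 (95% interval -0.20 to 0.21). The apolipoprotein gene *Apob* differed by -0.11, the serpin *Serpina3k* by -0.22, the mitochondrial *mt-Co1* by 0.04, the carbonic anhydrase *Car3* by 0.19 and *Apoa1* by -0.15. Families with housekeeping roles differed in how often they were bounded. Of 38 proteasome subunits 36 (94.7%) lay within 1.5-fold, with a median of -0.04, and of 77 respiratory chain and ATP synthase subunits 71 (92.2%), with a median of -0.02. Mitochondrial ribosomal proteins gave 72 of 76 (94.7%) with a median of -0.01. The share was 65.2% over all tested genes and 91.8% over all genes at 20 to 100 CPM, and nothing particular to these 3 families is read from their shares. Cytosolic ribosomal proteins gave 41 of 75 (54.7%) with a median of -0.10, and their many processed pseudogenes make the counts uncertain. Mitochondrially encoded genes gave 5 of 14 (35.7%) with a median of -0.09. At an unadjusted p under 0.05, 1 member of these families was higher, the respiratory chain gene *Cox5b* (0.40, edgeR adjusted p = 0.234). Lower were 2 cytosolic ribosomal, 1 proteasome, 1 respiratory chain and 1 mitochondrial ribosomal gene, and none of either direction passed edgeR or DESeq2.

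Some transcripts varied widely between mice of the same age. Among genes with a mean of at least 5 CPM, *Rpsa-ps10* had the largest SD within an age (3.81 log2 units), with 18.7, 0, 20.8, 0 and 17.1 CPM at 11 weeks and 17.2, 0, 20.7, 0 and 0 CPM at 19–21 weeks. It was thus present in some mice and absent from others at both ages. *Gm37194* (3.28) and *Gm23935* (3.06) followed, the latter with 102 to 9499 CPM at 11 weeks and 187 to 9812 CPM at 19–21 weeks. *Rims4*, a synaptic vesicle protein gene, had an SD of 2.55.

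The same ages were then set side by side in Titan mice, which share no library with the controls. None of the 12 genes passed edgeR or DESeq2 in Titan mice, 3 had an unadjusted p under 0.05 there (15.6% of all tested genes did), and 9 had the same sign. *Abcg5* differed by 0.34 in Titan mice, *Slco1a1* by 0.04, *Chchd2* by -0.11 and *Ces1g* by 0.10. A test of the difference between the lines passed for 1 gene of 13783 (0.00726%), which was *Gm6614*. That count was 87 by DESeq2, 26 with no filter on low counts and 56 without 11-week-old Titan mouse 4. In Titan mice *Gm6614* averaged 14.8 CPM at 11 weeks and 23.6 CPM at 19–21 weeks, both above the older controls, and differed by 0.67 (95% interval 0.23 to 1.12). Its change with age was smaller in Titan mice than in controls by a log2 interaction of -2.74 (edgeR adjusted p = 0.0103). For the other 11 genes the adjusted p of the interaction ran from 0.0905 to 0.471, so edgeR did not show a difference between lines for them.

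**Figure D5:**
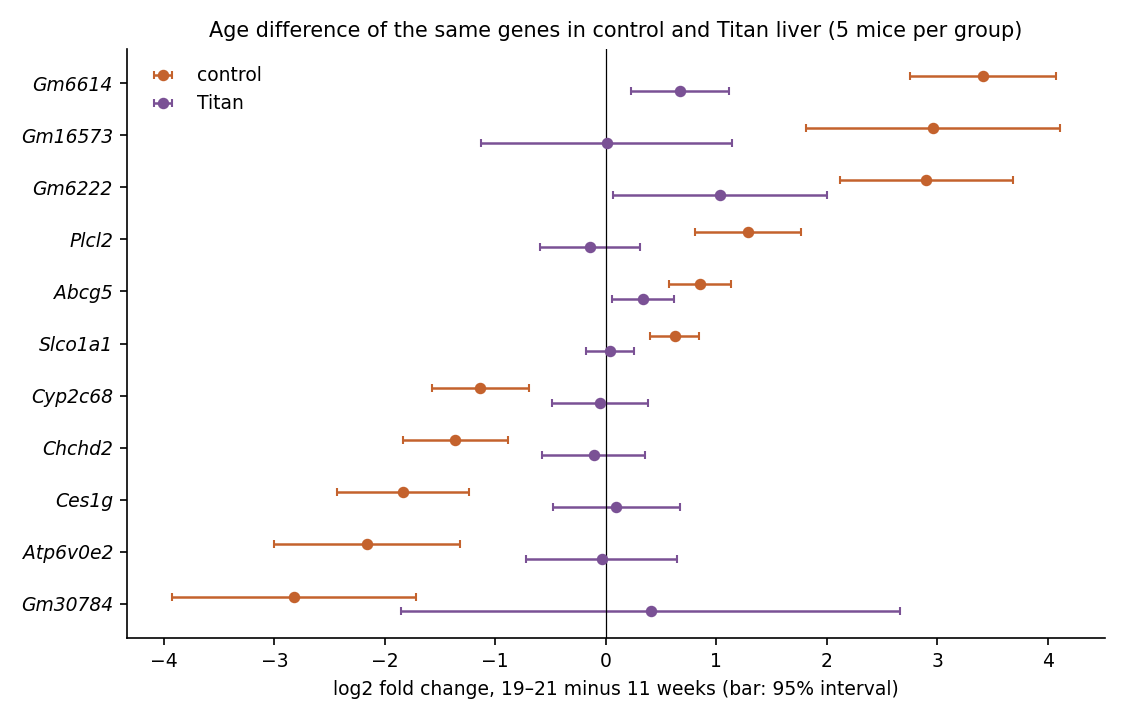
Log2 fold change at 19–21 against 11 weeks in control mice and in Titan mice for 11 of the 12 genes past the test in controls, with points for estimates and bars for 95% intervals. Gm6614 is at 3.41 in controls and 0.67 in Titan mice, the only pair shown whose difference passed the interaction test in edgeR.

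More genes passed the test between the same ages in Titan mice, 172 of 13783, of which 67 (0.486%) were higher and 105 (0.762%) lower at 19–21 weeks. Of these 172 genes, 92 (53.5%) lay within 1.5-fold between the ages in controls, against 65.2% of all tested genes. *Cyp2e1* is an example, with a difference of 0.92 in Titan mice (edgeR adjusted p = 0.0066) beside 0.13 in controls. *Abcg8* passed in Titan mice at 0.53 (edgeR adjusted p = 0.0375), beside 0.56 in controls, where it did not pass. A gene past the test in 1 line and not in the other is not thereby shown to differ between them.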

How the data were processed

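Liver RNA from 20 male mice (5 per line and age) was ribosomal RNA-depleted and sequenced as directional libraries. The authors deposited raw read counts per gene for each library, made by STAR 2.5.3a on GRCm38 per the labels and the submitters' processing notes. The counter discarded reads with more than 1 mapping position and reads shared by overlapping genes. The column for the reverse strand was used, which held 97.0 to 97.5% of the gene reads of the controls. Symbols and positions came from GENCODE M21 (GRCm38) and matched 55480 of 55573 gene rows. Rows naming no gene were left out of library sizes, and the test omitted 1562 Y-linked and 93 histone genes.

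Counts of all 20 mice were fitted together with edgeR 4.0.16 (R 4.3.3) by quasi-likelihood, with 1 term per line and age, TMM scaling and filterByExpr, which kept 13783 genes. P-values were adjusted by Benjamini-Hochberg over all genes, and all tests were two-sided. A gene was called bounded within 1.5-fold where the whole 95% interval lay inside that limit. Intervals rest on the spread between mice, estimated from all 20. DESeq2 1.42.0, other scalings, filters, strands and samples were alternatives. Genes with a close copy (at least 90% identity over at least 250 bases, BLAST 2.17.0) were called uncertain. Named were all genes past the test, the 6 nearest in each direction, up to 6 passed only by DESeq2, up to 3 members by p and the most abundant of each list, the 10 most abundant bounded genes and the 6 most variable ones at 5 CPM or more. Others that are named, such as *Arntl*, *Parp4*, *Zbed5*, *Cyp2c67* and *Hsp90b1*, were picked after their values were seen. Some genes that this rule names, 1 of them past the test, are not reported here. Members, lists and rules were chosen with earlier results of these data known.

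On simulated counts for the control comparison over 13571 genes, 78.41% of 88 genes changed 2-fold and 97.32% of 112 changed 4-fold were recovered. Of the calls 5.319% were false, and 95.255% of the intervals covered the true value. The simulation was run once, left the least abundant genes unchanged and drew counts from the fitted model without outlying mice. It changed many more genes than passed in the real data, which eases the adjusted threshold, so recovery in the real data may be lower. No pair of control libraries agreed within sampling noise.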

Additional observations from a re-analysis of the deposited data

Results flagged for a closer look

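In 49 genes given by mouse, 98 groups of 5 mice were examined for a mouse standing far from the other 4, and chance alone marks about 1 in 20 such groups. A mouse stood apart in 5. For *Cyp2c68* at 11 weeks the lowest mouse had 48.3 CPM and the next 88.1. For *Atp6v0e2* at 19–21 weeks the highest mouse had 2.37 CPM and the next 0.451. For *Cyp2c55* at 11 weeks the highest mouse had 10.6 CPM and the next 3.11. For *Igf1* at 19–21 weeks the highest mouse had 1356 CPM and the next 1092. For *Cyp2c70* at 11 weeks the lowest mouse had 670.0 CPM and the next 1043. The age change of *Gm6614* differed between the lines, with an interaction of -2.74 on the log2 scale, Titan mice against controls.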

How the results depend on the processing

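The 12 calls, 6 higher and 6 lower, were the same in number with RLE size factors, with Y chromosome and histone genes kept, and with a required log2 change over 0.5. Counts of both strands gave 5 and 5. DESeq2 gave 26 higher and 24 lower, with 87 genes for the interaction between age and line. With no filter on low counts there were 14 higher, 11 lower and 26 for the interaction. With at least 10 counts in every mouse there were 3 higher, 4 lower and 0 for the interaction, with 1027 at an unadjusted p under 0.05. The 10 control mice alone gave 4 higher and 0 lower. Leaving out the 2 control libraries with most reads outside genes, chosen after seeing the data, gave 3 higher, 3 lower and 2 for the interaction. Leaving out 1 mouse gave 3 to 9 higher, 2 to 8 lower and 1 to 56 for the interaction. The fewest calls, 3 higher and 2 lower, came without 11-week-old control mouse 3, then 3 and 3 without 11-week-old control mouse 4. The lower count was also 3 without older control mouse 3 or 5, younger Titan mouse 1 or 4, or older Titan mouse 3 or 5. The interaction count of 56 came without younger Titan mouse 4, and it was 9 without older Titan mouse 4, 6 without younger control mouse 1, and 3 without older control mouse 4 or older Titan mouse 2. The cause of these moves was not tested. Genes within 1.5-fold numbered 8548 to 9025 when 1 mouse was left out, and under a tighter limit 4572 genes were bounded. Of the 12 genes, *Gm6614* and *Gm6222* passed under every alternative that tested them, and no gene reversed. Same-numbered control mice of the 2 ages correlated at -0.131 to 0.0245 in their deviations from the age means. This gave no sign of pairing over all genes but cannot exclude a link by number. Mouse 4 had the highest share of reads outside genes at both ages (28.17% and 30.53%). Mouse 1 had the highest mitochondrial share at both (15.12% and 15.98%). A replicate block gave 4 higher, 4 lower, 1 for the interaction and 8927 within 1.5-fold. Depth limits genes under 5 CPM, for most of which a 1.5-fold change could not be bounded.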
